A study of Mus musculus with 9 samples.

Results

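The clade B serpin genes form a family of intracellular protease inhibitors, and 10 of them, Serpinb2, Serpinb3a, Serpinb3b, Serpinb3c, Serpinb3d, Serpinb5, Serpinb7, Serpinb8, Serpinb11 and Serpinb12, are described here in mouse epidermis that lacks the splicing regulators Esrp1 and Esrp2. The 10 genes were taken by symbol from a table of 38203 genes. Where a symbol is repeated, the row was to be chosen by its mean level over the 9 libraries, but each of these symbols has 1 row. The list itself was drawn up with results of these libraries known, so the levels and calls below describe the genes and are not independent evidence about the family.

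Serpins fold into a metastable shape with an exposed reactive centre loop. A target protease cleaves this loop, the serpin snaps into a new fold, and the protease is trapped and inactivated. Clade B serpins lack a classical secretion signal and act mostly inside the cell. Several are abundant in stratified epithelia, where proteases of the lysosome and of the upper epidermal layers have to be held in check while keratinocytes differentiate and cornify.

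RNA came from the epidermis of the trunk of single embryos at E18.5, peeled from the dermis with trypsin, on a mixed C57BL6/129Sv background. WT embryos gave 2 libraries. KO embryos (Esrp1-/-, Esrp2+/+) gave 3, KH embryos (Esrp1-/-, Esrp2+/-) gave 2, and DKO embryos (Esrp1-/-, Esrp2-/-) gave 2. The Esrp1 allele is a germline deletion of internal exons made with Zp3-Cre, which acts in oocytes, and the Esrp2 allele replaces the gene with a LacZ and neomycin cassette. No KO, KH or DKO embryo therefore had working Esrp1 in any tissue, and the epidermis was not deleted selectively. In one passage of the sample notes the controls are written as lacking Esrp2. The titles and genotype labels call them WT, and Esrp2 stood at 118.1 and 135.8 FPKM in these libraries against 0.0843 and 0.0463 FPKM in DKO. In KO it was at 88.1, 88.4 and 131.1 FPKM. The KH libraries, with 1 allele left, were at 38.6 and 89.5 FPKM, so that KH replicate 2 was as high as the lower KO libraries. FPKM scales fragments to transcript length and to the mapped fragments of the library, so levels of different genes can be set side by side on it.

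Gene level Esrp1 was between 119 and 141.9 FPKM in WT and between 18.2 and 55.1 FPKM in the 7 knockout libraries, with the lowest and the highest of these in the same genotype, KH. FPKM summed to between 713318 and 1130713 per library, a spread that the table does not remove. The embryos also differed in sex. For Xist, the 3 KO libraries ranged from 76.2 to 180 FPKM and WT replicate 2 stood at 111 FPKM, and no other library exceeded 0.178 FPKM. In the comparisons of KH or DKO with KO, genotype and sex therefore cannot be told apart. Keratinocyte markers were high in every library: 6 basal genes (Krt5, Krt14, Krt15, Trp63, Col17a1, Itgb4) summed to at least 4097 FPKM. In tissue RNA of this kind, fewer cells of a type and less RNA per cell cannot be told apart.

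All 10 genes lie within 749.3 kb of chromosome 1 (GRCm38, 106861173 to 107610484), in the order Serpinb5, Serpinb12, Serpinb3a, Serpinb3d, Serpinb3b, Serpinb3c, Serpinb11, Serpinb7, Serpinb2 and Serpinb8. The 4 Serpinb3 genes are read from the minus strand and the other 6 from the plus strand. Serpinb3a to Serpinb3d are the mouse counterparts of the human squamous cell carcinoma antigens and arose by local duplication, and their sequences decide how far reads can be assigned to each of them. Their coding sequences are 86.2% to 93.4% identical in pairs, closest between Serpinb3b and Serpinb3c. Over the 1158 positions that align in all 4 genes, 213 (18.4%) are not the same in every gene. The 60 base stretch with the most such positions holds 32. It begins at base 1010 of each coding sequence and encodes part of the reactive centre loop, the part of a serpin that meets the protease. It is shown for that reason, in the order of the coding strand, with capitals at the positions that are not the same in all 4 genes. The stretches are at chr1:107046111-107046170 (Serpinb3a), chr1:107154464-107154523 (Serpinb3b), chr1:107271721-107271780 (Serpinb3c) and chr1:107078288-107078347 (Serpinb3d), each in a coding exon on the minus strand of GRCm38.
Serpinb3a: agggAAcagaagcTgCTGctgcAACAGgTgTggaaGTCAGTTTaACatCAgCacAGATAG
Serpinb3b: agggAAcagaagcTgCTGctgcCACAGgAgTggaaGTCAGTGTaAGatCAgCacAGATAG
Serpinb3c: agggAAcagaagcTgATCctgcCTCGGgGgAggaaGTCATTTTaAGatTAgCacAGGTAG
Serpinb3d: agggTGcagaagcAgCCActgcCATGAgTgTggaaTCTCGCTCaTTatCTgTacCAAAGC

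Reads of 100 bases were sequenced, and windows of that length were compared with all transcripts of the GENCODE M21 annotation. Of the 1521 windows of the Serpinb3a transcript, 100 (6.57%) also occur, base for base, in another gene, in each case the neighbouring pseudogene Gm8080. In Serpinb3b and in Serpinb3c, 8 windows (0.515% and 0.513%) are shared between the pair, and in Serpinb3d none is. With up to 3 mismatches allowed, the share that matches another member rises to 15%, 25.4%, 17.8% and 6.36% in Serpinb3a, Serpinb3b, Serpinb3c and Serpinb3d. No window of the other 6 members matches another member at that tolerance. The deposited table also gives Serpinb3b and Serpinb3c the same interval (107153939 to 107278371), since the Serpinb3b model spans both genes, and Serpinb2 shares its interval with Serpinb10. How fragments were divided within these loci is not given in the sources used here, so the levels of the Serpinb3 genes and of Serpinb2 carry that uncertainty.

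The promoters of Serpinb3a, Serpinb3b and Serpinb3c are close relatives as well, at 93.1% to 96.2% identity in pairs, whereas that of Serpinb3d is 46.8% to 47.2% identical to them. Among the 266 positions that align in the first 3, 23 (8.65%) are not the same in all. These promoters are shown because the levels of the 3 genes are compared with each other further on. Each runs from 250 bases before to 50 bases after the RefSeq start site (GRCm38.p6, minus strand, chr1:107052254-107052553, chr1:107161065-107161364 and chr1:107278322-107278621), with capitals at bases that differ among the 3 or have no partner in 1 of the others.
Serpinb3a: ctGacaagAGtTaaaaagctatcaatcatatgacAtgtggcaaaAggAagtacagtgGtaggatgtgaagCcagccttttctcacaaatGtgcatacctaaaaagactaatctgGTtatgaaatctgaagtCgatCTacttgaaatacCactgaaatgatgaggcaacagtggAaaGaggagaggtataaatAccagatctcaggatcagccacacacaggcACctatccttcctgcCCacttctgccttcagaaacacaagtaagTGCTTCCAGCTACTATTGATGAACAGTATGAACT
Serpinb3b: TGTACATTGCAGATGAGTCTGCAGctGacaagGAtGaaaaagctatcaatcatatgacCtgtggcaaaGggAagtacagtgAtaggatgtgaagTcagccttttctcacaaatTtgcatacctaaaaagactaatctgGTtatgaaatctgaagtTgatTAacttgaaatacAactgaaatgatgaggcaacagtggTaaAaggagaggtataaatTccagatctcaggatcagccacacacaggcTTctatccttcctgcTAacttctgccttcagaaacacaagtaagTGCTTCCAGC
Serpinb3c: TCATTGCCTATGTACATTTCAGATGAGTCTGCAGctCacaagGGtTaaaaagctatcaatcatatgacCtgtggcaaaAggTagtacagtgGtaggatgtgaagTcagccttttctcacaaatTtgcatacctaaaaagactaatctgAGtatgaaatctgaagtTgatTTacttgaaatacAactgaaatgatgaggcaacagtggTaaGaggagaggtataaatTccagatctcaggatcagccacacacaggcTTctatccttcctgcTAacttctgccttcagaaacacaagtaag

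All 10 genes have a promoter in the RefSeq table, 12 in all because Serpinb2 and Serpinb12 have 2 each. The letters TGANTCA, a loose form of the site of AP-1 (Fos and Jun dimers, which act throughout keratinocyte differentiation), were searched on both strands. They stand in the promoters of 6 of the 10 genes, none of them a Serpinb3 gene, and in 7.81% of the 32851 promoters of the table. The usual AP-1 site has C or G as its middle base, and among these genes only the matches of Serpinb7 and Serpinb8 do. That stricter form was not counted over all promoters. The letters TTCNNNGAA, the site of STAT factors, stand in Serpinb2 alone of the 10 genes and in 8.3% of all promoters. The letters AACNGGT, part of the Grainyhead site, stand in none of the 10 and in 8.13% of all promoters. The matches of TGANTCA are shown in capitals with 12 bases on each side, from the plus strand, which is the coding strand of these genes. In Serpinb2 the match begins 94 bases before the start site (chr1:107511317-107511347), in Serpinb5 140 bases (chr1:106861023-106861053), and in Serpinb7 45 bases (chr1:107422632-107422662). In Serpinb12 it also begins 45 bases before a start site (chr1:106934392-106934422). Serpinb8 has 1 match 23 bases before the start site (chr1:107589971-107590001) and 1 from base 14 after it (chr1:107590007-107590037), and Serpinb11 has matches 181 and 76 bases before it (chr1:107362121-107362151 and chr1:107362226-107362256). A match of letters is a description of the sequence and not evidence of binding.
Serpinb2: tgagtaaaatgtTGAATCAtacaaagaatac
Serpinb5: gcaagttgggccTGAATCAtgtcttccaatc
Serpinb7: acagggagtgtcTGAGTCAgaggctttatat
Serpinb8, upstream: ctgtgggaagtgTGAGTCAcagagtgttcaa
Serpinb8, downstream: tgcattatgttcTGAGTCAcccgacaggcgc
Serpinb11, upstream: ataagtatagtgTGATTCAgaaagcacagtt
Serpinb11, downstream: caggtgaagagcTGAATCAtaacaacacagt
Serpinb12: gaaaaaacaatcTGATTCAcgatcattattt

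In WT epidermis 8 members were abundant and 2 were near the lower end of the scale. Serpinb12, an inhibitor of trypsin-like proteases, had the highest level, 1292 ± 92.4 FPKM (mean ± SD, n = 2). Serpinb5, or maspin, followed at 591 ± 20.1 FPKM and Serpinb3a at 410 ± 62.9 FPKM. Each of these 3 stood above the next without overlap of the WT libraries. Serpinb3c at 291 ± 31.9 FPKM and Serpinb7, also called megsin, at 277 ± 11.7 FPKM overlapped in the WT libraries. Serpinb3b came next at 194 ± 14.4 FPKM. Serpinb2, plasminogen activator inhibitor type 2, at 136 ± 28.8 FPKM and Serpinb8, an inhibitor of furin, at 116 ± 2.12 FPKM overlapped with each other but not with Serpinb3b. Serpinb11 (2.61 ± 0.078 FPKM) and Serpinb3d (2.46 ± 0.785 FPKM) were far lower and also overlapped. The 10 genes together made up 0.349% and 0.404% of all FPKM in the WT libraries. They made up 0.191% to 0.310% in KO, 0.228% and 0.243% in KH, and in DKO 0.251% and 0.280%, so that every knockout library was below both WT libraries. In DKO the order of the means was Serpinb12, Serpinb5, Serpinb3c, Serpinb7, Serpinb3b, Serpinb3a, Serpinb2, Serpinb8, Serpinb11 and Serpinb3d. Serpinb3a thus stood behind Serpinb5 in WT and behind Serpinb3b in DKO.

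**Figure D1:**
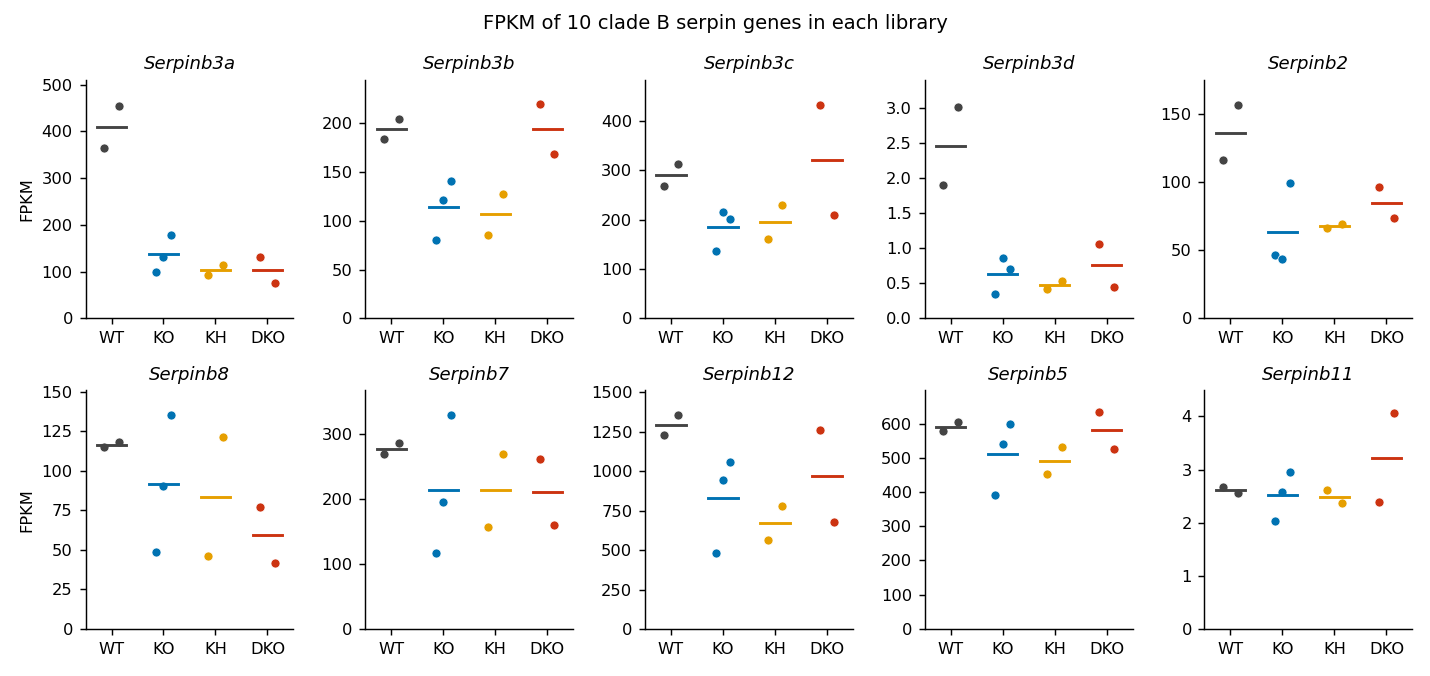
FPKM (y axis, from 0, own scale in each panel) of the 10 clade B serpin genes in the 2 WT, 3 KO, 2 KH and 2 DKO libraries. Points are libraries and bars are genotype means. In Serpinb3a, Serpinb3d and Serpinb2 all 7 knockout libraries sit below both WT libraries, whereas in Serpinb3b and Serpinb3c the DKO libraries lie on both sides of the WT values.

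Serpinb3a had the lowest level relative to WT of the list in DKO, where it was the member called. It was at 365.1 and 454.1 FPKM in WT, at 99.4, 132 and 179 FPKM in KO, at 93.2 and 114.3 FPKM in KH, and at 130.4 and 75.6 FPKM in DKO. Every knockout library was thus below both WT libraries, and the 3 knockout genotypes overlapped among themselves. The mean was 33.4% of WT in KO, 25.3% in KH and 25.1% in DKO. On the scale of log2(FPKM + 1), on which all 9 libraries were fitted with limma over 16897 genes, Serpinb3a differed from WT by -2.02 (SE 0.345) in DKO, -1.61 (SE 0.315) in KO and -1.97 (SE 0.345) in KH. A gene was called where its Benjamini-Hochberg adjusted p over all these genes was below 0.05 and its mean FPKM differed more than 2-fold. Serpinb3a passed in DKO (adjusted p = 0.0415, limma) and did not in KO (adjusted p = 0.647) or in KH (adjusted p = 0.448). Differences between DKO and KO (-0.42, SE 0.315) and between DKO and KH (-0.06, SE 0.345) did not pass, so a step from KO to DKO was not shown. The call in DKO rests on few libraries and was lost in 7 of the 9 fits that left out 1 library, both WT and both DKO libraries among them, with adjusted p from 0.0389 to 0.42 over the 9. It was also lost with no filter (adjusted p = 0.245), without an intensity trend (adjusted p = 0.068) and with the replicate number as a block (adjusted p = 0.1). The difference itself stayed between -2.41 and -1.64 in these fits. Within the libraries with high Xist, WT replicate 2 at 454.1 FPKM stood above the KO range of 99.4 to 179 FPKM. Within those with low Xist, WT replicate 1 at 365.1 FPKM stood above the KH and DKO range of 75.6 to 130.4 FPKM.

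Serpinb3d followed the same pattern at a level more than 100-fold lower. Its values were 1.91 and 3.02 FPKM in WT, 0.349, 0.863 and 0.695 FPKM in KO, 0.411 and 0.529 FPKM in KH, and 1.06 and 0.45 FPKM in DKO. No knockout library reached the WT values, and the genotype means were 25.8%, 19.1% and 30.7% of WT in KO, KH and DKO. At this level the added 1 in log2(FPKM + 1) shrinks the difference, which was -0.98 (SE 0.237) in DKO with the added 1 and -1.64 with 0.1 in its place. The gene was not called in any comparison (limma, adjusted p = 0.136 in DKO against WT), except that it joined Serpinb3a when limma weighted the libraries by their quality (adjusted p = 0.0481).

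Serpinb3b and Serpinb3c were lower than WT in KO and KH but not in DKO. Serpinb3b was at 183.9 and 204.3 FPKM in WT, at 79.8, 121.4 and 140.6 FPKM in KO, at 85.7 and 127.3 FPKM in KH, and at 219.7 and 168.7 FPKM in DKO. Its KO and KH values lay below both WT values, and the DKO values lay on either side of them. Serpinb3c was at 268.7 and 313.8 FPKM in WT, at 136.3, 215.6 and 201.3 FPKM in KO, at 160.2 and 229.7 FPKM in KH, and at 433.3 and 208.9 FPKM in DKO. Again the KO and KH libraries were below WT, and 1 DKO library was the highest of the 9 while the other was below both WT libraries. Against WT, DKO differed by -0.01 in Serpinb3b (95% interval -0.73 to 0.71) and by 0.05 in Serpinb3c (95% interval -0.83 to 0.93), so a change of 1.5-fold in either direction was not excluded in either gene. Against KO, DKO was higher by 0.79 (SE 0.289) in Serpinb3b and 0.73 (SE 0.351) in Serpinb3c, and neither passed (limma, adjusted p = 0.559 and 0.803). None of the differences of these 2 genes from WT in KO or KH passed either, at -0.80 to -0.89 in Serpinb3b and -0.60 to -0.68 in Serpinb3c.

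**Figure D2:**
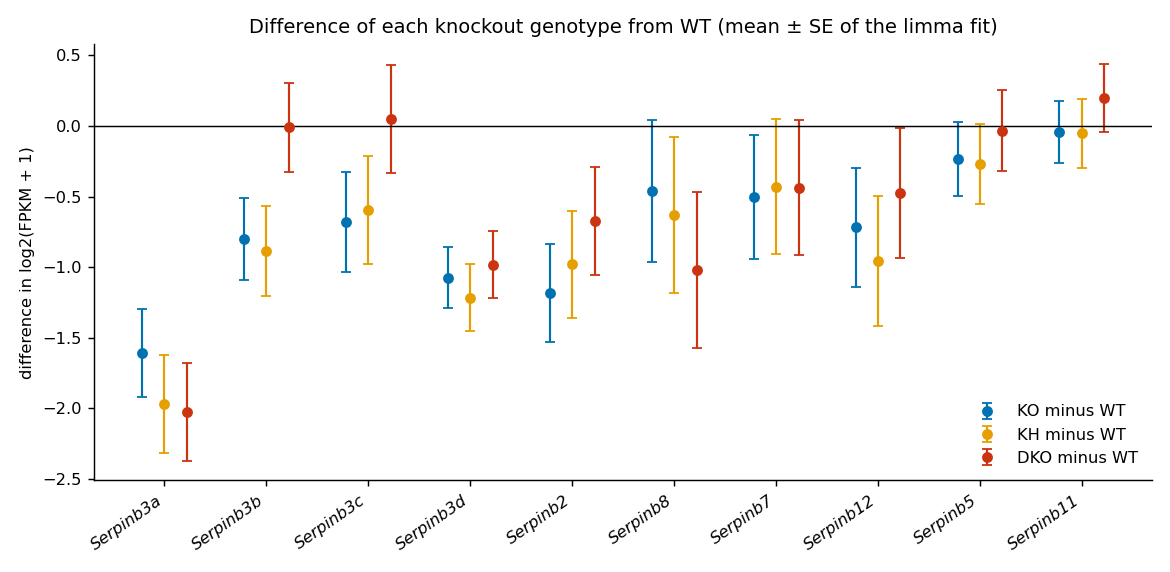
Difference in log2(FPKM + 1) from WT (y axis) for each of the 10 genes in KO, KH and DKO. Points are estimates of the limma fit and bars are 1 SE. Serpinb3a has the lowest value in each genotype (-1.61, -1.97 and -2.02), and in DKO Serpinb3b and Serpinb3c are near 0 (-0.01 and 0.05).

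Ratios within a library do not depend on how libraries are scaled, and the Serpinb3 paralogs were compared that way after their values were seen. Serpinb3a was above Serpinb3c in both WT libraries, with ratios of 1.36 and 1.45. It was below Serpinb3c in every knockout library, where the ratios were 0.729, 0.612 and 0.889 (KO), 0.582 and 0.498 (KH), and 0.301 and 0.362 (DKO). The 4 genotypes did not overlap on this ratio, which had the order WT, KO, KH, DKO. From KH to DKO the mean of Serpinb3a hardly moved (103.8 and 103 FPKM), while that of Serpinb3c was 194.9 and 321.1 FPKM. The step from KH to DKO thus came from the denominator and was not a further loss of Serpinb3a. How many other pairs of genes separate the genotypes was not counted. With Serpinb3b as the denominator the ratios were 1.99 and 2.22 in WT, 1.09 to 1.27 in KO, 0.898 and 1.09 in KH, and in DKO 0.448 and 0.593, in the same order of means. Serpinb3d relative to Serpinb3c was 0.00709 and 0.00961 in WT and between 0.00216 and 0.004 in the 7 knockout libraries. In contrast, the ratio of Serpinb3b to Serpinb3c overlapped between WT (0.651 and 0.684), KO (0.563 to 0.699) and DKO (0.507 and 0.808), and both KH libraries (0.535 and 0.554) lay below WT. Serpinb3a contributed 11.7% and 13% of the summed FPKM of the 10 members in WT, 5.78% to 7.08% in KO, 5.09% and 5.73% in KH, and in DKO 3.90% and 4.18%. The pseudogene Gm8080, which shares windows with Serpinb3a and lies beside it, was at 4.24 and 5.10 FPKM in WT and between 0.461 and 2.14 FPKM in the knockout libraries. Its reads and those of Serpinb3a cannot be fully told apart here.

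**Figure D3:**
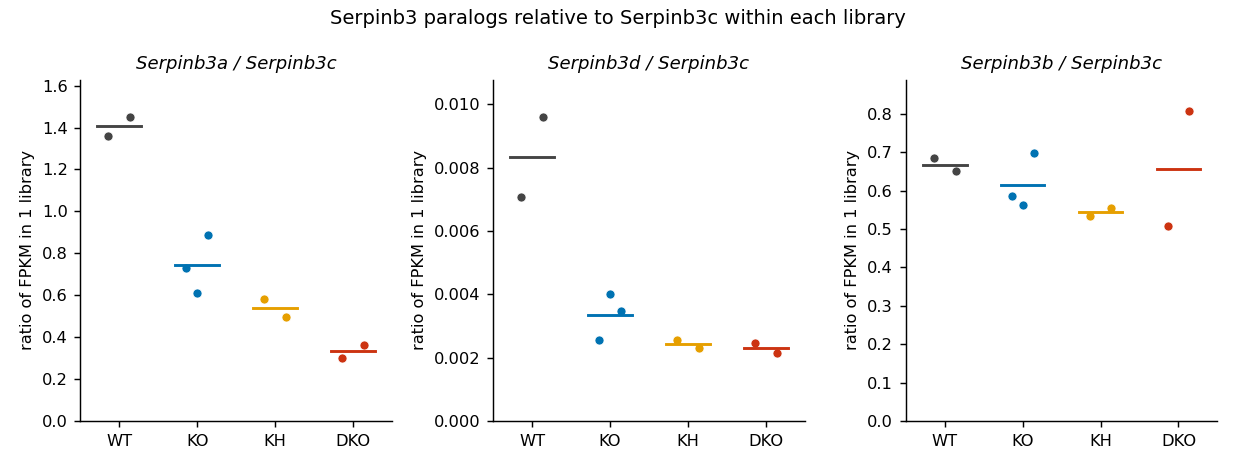
Ratio of FPKM of Serpinb3a, Serpinb3d and Serpinb3b to that of Serpinb3c within each library (y axes, from 0), by genotype, with points for libraries and bars for means. The ratio of Serpinb3a is 1.36 and 1.45 in WT and 0.301 and 0.362 in DKO with no overlap between genotypes, whereas that of Serpinb3b overlaps between WT, KO and DKO.

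Serpinb2 inhibits urokinase and is abundant inside differentiating keratinocytes. It was at 115.9 and 156.6 FPKM in WT, at 46.6, 43.8 and 99.5 FPKM in KO, at 66 and 69.6 FPKM in KH, and at 96.5 and 73.4 FPKM in DKO. All 7 knockout libraries were below both WT libraries, closest in KO replicate 3 and DKO replicate 1, at means of 46.5%, 49.7% and 62.3% of WT. The differences on the log2 scale were -1.18 (SE 0.349) in KO, -0.98 (SE 0.382) in KH and -0.67 (SE 0.382) in DKO, and none passed (limma, adjusted p = 0.853, 0.98 and 0.461). Urokinase itself (Plau) was also lower than both WT libraries in all 7 knockout libraries, at 37.2 and 34.1 FPKM in WT, 20.1 to 25.2 FPKM in KO, 21.1 and 30.4 FPKM in KH, and 24.3 and 32.9 FPKM in DKO. It was not called, at -0.66 (SE 0.221) in KO. Serpinb10, which shares the interval of Serpinb2 in the table, was at 32.6 and 32.9 FPKM in WT and 37.6 to 50.8 FPKM in KO. Its KH libraries were at 39.4 and 20.5 FPKM and its DKO libraries at 29.4 and 30.2 FPKM. It was thus above WT in KO, where Serpinb2 was below it, and slightly below WT in DKO. The ratio of Serpinb2 to Serpinb10 was 3.55 and 4.76 in WT, 0.918 to 2.65 in the KO libraries, and for KH it was 1.68 and 3.39 and for DKO 3.28 and 2.43, lower than in WT in all 7 knockout libraries.

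Serpinb8 and Serpinb7 were lower than WT in both DKO libraries but varied widely within KO and KH. Mutations of human SERPINB7 and SERPINB8 cause disorders of keratinization, the palmoplantar keratosis of Nagashima type and an exfoliative ichthyosis. Serpinb8 was at 114.9 and 117.9 FPKM in WT, at 48.9, 90.6 and 135 FPKM in KO, at 46.2 and 121.2 FPKM in KH, and at 77 and 41.9 FPKM in DKO. The DKO mean was 51.1% of WT (log2 difference -1.02, SE 0.552, limma adjusted p = 0.442), and leaving out DKO replicate 2 or 1 gave -0.59 or -1.45. The KO libraries ran from well below to above WT. Serpinb7 was at 269 and 285.7 FPKM in WT, at 116.4, 194.5 and 329 FPKM in KO, at 156.7 and 269.7 FPKM in KH, and at 260.8 and 160.2 FPKM in DKO. Its genotype means were 76.9%, 76.9% and 75.9% of WT, but its KO libraries were 2.83-fold apart and each mean rested on single libraries. Leaving out 1 library moved the log2 difference between -0.88 and -0.13 in KO, between -0.82 and -0.04 in KH and between -0.79 and -0.09 in DKO. Relative to Serpinb7, Serpinb8 was at 0.413 and 0.427 in WT, 0.410 to 0.466 in KO, 0.295 and 0.449 in KH, and in DKO 0.295 and 0.262. Both genes were lowest in KO replicate 1, KH replicate 1 and DKO replicate 2, which are also the 3 libraries with the lowest summed FPKM (734747, 713318 and 771857). Within their genotypes these libraries also had the highest sums of the basal markers (8463, 7509 and 7333 FPKM). Their sums of the spinous markers, named below, were the lowest of their genotypes (31890, 38460 and 35250 FPKM). With the libraries rescaled as TPM, by median ratios or by quantiles, the difference of DKO from WT was -1.095, -0.995 and -1.024 in Serpinb8 and -0.51, -0.41 and -0.52 in Serpinb7 against -1.02 and -0.44 without rescaling. The part of library scale, or of the layers in the sample, in the spread within a genotype was not tested.

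Serpinb12 and Serpinb5 were the most abundant members in every genotype. Serpinb12 was at 1227 and 1357 FPKM in WT, at 481.5, 943.3 and 1061 FPKM in KO, at 563.7 and 780.3 FPKM in KH, and at 1262 and 680.7 FPKM in DKO. KO and KH were below WT in every library, and in DKO 1 library was between the WT values. Its means were 64.1%, 52.0% and 75.2% of WT in KO, KH and DKO, with no call. The DKO difference of -0.48 became -0.03 or -0.92 when DKO replicate 2 or 1 was left out. Serpinb5, which lies at the edge of the cluster, was at 577.2 and 605.7 FPKM in WT, at 392.1, 539.4 and 599.6 FPKM in KO, at 453.3 and 531.1 FPKM in KH, and at 633.3 and 527.1 FPKM in DKO. Only the KH libraries lay wholly below WT, and the DKO mean was 98.1% of WT (95% interval of the log2 difference -0.69 to 0.62). Serpinb11, the remaining low member, was at 2.67 and 2.56 FPKM in WT and between 2.04 and 4.06 FPKM elsewhere, and every knockout genotype overlapped WT.

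Across the list, 1 of the 10 members, Serpinb3a, was called in DKO against WT, where 0.728% of the 16897 genes tested were called. No member was called in the other 5 comparisons (limma), in which 0.0296% of genes were called in KO against WT, 0.0296% in KH against WT, 0.639% in DKO against KO, 0.426% in DKO against KH and 0% in KH against KO. At an unadjusted p under 0.05 there were 4 members in KO against WT, 4 in KH against WT, 2 in DKO against WT, 1 in DKO against KO, 1 in DKO against KH and 0 in KH against KO. Over all genes tested, these shares were 4.53%, 3.72%, 13.8%, 6.8%, 5.71% and 1.09% in the same order, so the 2 members in DKO against WT are near the share of all genes. The 1 member against KO and against KH was Serpinb3b. All 10 members had a lower estimate than WT in both KO and KH, as did 8 of 10 in DKO, with median differences of -0.70, -0.76 and -0.46 against 0.00, 0.00 and 0.02 over all genes tested. Single libraries moved these medians. That of DKO was -0.09 or -0.83 when DKO replicate 2 or 1 was left out, that of KO ran from -0.91 without KO replicate 3 to -0.42 without KO replicate 1, and that of KH from -1.09 to -0.47, the values without KH replicate 2 and 1. The count of 10 was 9 in KO without KO replicate 1, where Serpinb11 turned to 0.06, and 9 in KH both without KH replicate 1, where Serpinb8 turned to 0.06, and as TPM, where Serpinb11 turned to 0.04. These 3 comparisons share their WT libraries and are not independent of each other. Every library was below every WT library for 6 members in KO, where this held for 12.1% of genes, for 7 members in KH, where it held for 16.6%, and for 5 members in DKO, where it held for 26.4%. All 7 knockout libraries were below both WT libraries for 3 members, Serpinb3a, Serpinb3d and Serpinb2, and for 5.08% of genes. No member had a knockout genotype wholly above WT, but the share over all genes was counted only for the lower direction.

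Most members varied together across libraries, with Serpinb11 as the exception. Over the 9 libraries, Pearson's r of log2(FPKM + 1) ranged from 0.449 to 0.940 over the 36 pairs without Serpinb11, with a median of 0.724, and from -0.216 to 0.341 over the 9 pairs with it. The highest values were 0.940 between Serpinb3a and Serpinb3d, 0.938 between Serpinb5 and Serpinb12, and 0.909 between Serpinb3b and Serpinb3c, and Serpinb3a with Serpinb3c was among the lower ones at 0.489. These pairs share libraries and their scale, and the values are descriptions. Among 12187 other genes averaging at least 1 FPKM, the 5 most like Serpinb3a were Chmp1a (r = 0.981), H60c (0.973), Vopp1 (0.973), Gm10307 (0.971) and Chl1 (0.970), over 9 libraries. H60c, a ligand of the NKG2D receptor that is made in skin, was at 89.1 and 129.1 FPKM in WT and between 27.7 and 65.7 FPKM in the knockout libraries, and Chmp1a, a subunit of the membrane remodelling ESCRT-III complex, was at 96.7 and 104.3 FPKM in WT and between 47.5 and 74 FPKM in them. Neither was called in DKO against WT (limma, adjusted p = 0.0598 and 0.087).

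The table holds 18 other genes with a Serpinb symbol, 16 on chromosome 13 and 2, Serpinb10 and Serpinb13, within the cluster on chromosome 1. In 6 of the 18 every library was at 0, 9 passed the filter on low values, and none of these was called in KO, KH or DKO against WT. In DKO 3 of the 9 were higher and 6 lower than WT, with a median difference of -0.06. Serpinb6a, a broadly expressed cytoplasmic inhibitor, was at 23.3 and 22.8 FPKM in WT, 30.1 to 46.8 FPKM in KO, 45.1 and 20.1 FPKM in KH, and 36.2 and 39.8 FPKM in DKO. Its paralog Serpinb6c was at 33.9 and 42.4 FPKM in WT, 10.3 to 32.5 FPKM in KO, 12.7 and 11.4 FPKM in KH, and 16.2 and 14.4 FPKM in DKO, lower than WT in all 7 knockout libraries (log2 difference -1.26 in DKO, SE 0.443, limma adjusted p = 0.27). So in the DKO libraries Serpinb6a lay above WT and Serpinb6c below it, and reads of these close paralogs may be divided between them with error. Serpinb13, or headpin, which is named here after its values were seen, was low throughout and not called (limma, adjusted p = 0.185), at 1.09 and 0.593 FPKM in WT and 0.109 and 0.0415 FPKM in DKO. Serpinb1a, an inhibitor of neutrophil proteases, was at 1.36 and 1.64 FPKM in WT and 4.21 and 2.96 FPKM in DKO. Outside clade B, 39 Serpin genes were in the table, 19 passed the filter and none was called. The most abundant of them were Serpina12 (244.9 and 247.5 FPKM in WT, 302.1 and 108 FPKM in DKO) and the collagen chaperone Serpinh1 (32.4 and 28.3 FPKM in WT, 46.7 and 62.8 FPKM in DKO).

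**Figure D4:**
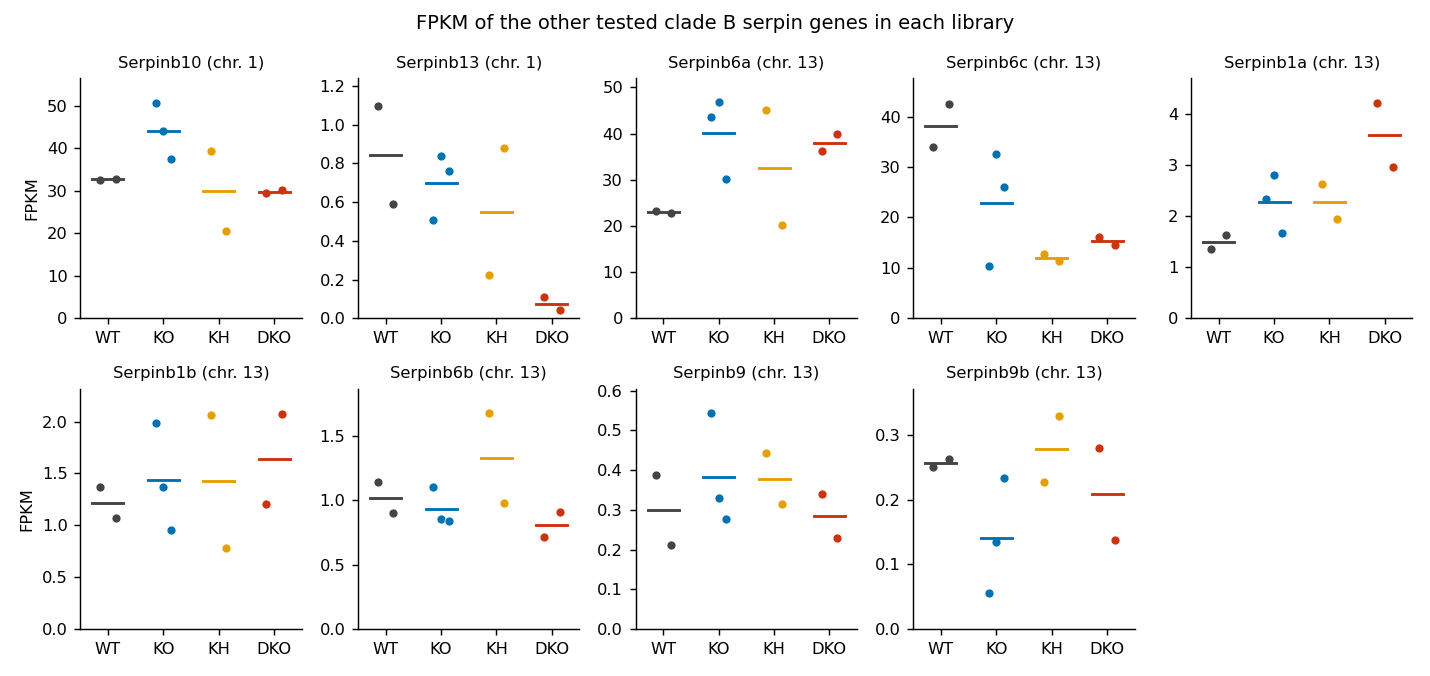
FPKM (y axis, from 0, own scale in each panel) of the 9 other clade B serpin genes that passed the filter, in each library by genotype, with bars for means. Serpinb6c is lower than both WT libraries in all 7 knockout libraries, and in DKO Serpinb6a is higher and Serpinb13 lower than in WT, with no gene called.

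The proteases that such serpins can meet were described from 4 lists, and the cystatins from 1 more. Of 14 cathepsins, lysosomal proteases that include the known targets of the squamous cell carcinoma antigens, 12 passed the filter and none was called, with 7 estimates higher and 5 lower in DKO. Cathepsin D (Ctsd) was at 656.7 and 680.4 FPKM in WT and 602 and 335.9 FPKM in DKO, and cathepsin A (Ctsa) at 193.4 and 188.9 FPKM in WT and 158.9 and 107.1 FPKM in DKO. Cathepsin L (Ctsl) was at 146.8 and 132.6 FPKM in WT and 224.3 and 115.3 FPKM in DKO, and cathepsin H (Ctsh) at 99.6 and 105.6 FPKM in WT and 167.6 and 89.5 FPKM in DKO. The DKO libraries were below WT for Ctsd and Ctsa and on both sides of it for Ctsl and Ctsh. Of 10 membrane-anchored serine proteases, all had lower estimates than WT in KO and KH and 8 did in DKO, at medians of -0.38, -0.28 and -0.42, and 1 was called in DKO. Over all genes tested 49.9%, 49.6% and 46.8% had lower estimates, and 0.728% were called in DKO. That gene was Tmprss11e, at 1.29 and 1.41 FPKM in WT and 0.0483 and 0.0686 FPKM in DKO (log2 difference -1.15, SE 0.126, limma adjusted p = 0.00381). Tmprss11e was also low in KO (0.114 to 0.315 FPKM) and KH (0.0908 and 0.324 FPKM). It was not called there, at -0.962 and -0.965 (limma, adjusted p = 0.058 and 0.0981). The abundant Tmprss4 was at 261.5 and 293.4 FPKM in WT and 279.1 and 162.4 FPKM in DKO, with no call, and the channel-activating protease Prss8 at 94.4 and 81.1 FPKM in WT and 78.2 and 44 FPKM in DKO. Tmprss13 was at 76 and 72.9 FPKM in WT and 77.5 and 46.2 FPKM in DKO. Of the plasminogen activator system 5 of 6 genes, and of the granule serine proteases 6 of 10, passed the filter, and none was called. No granule protease averaged 1 FPKM. The cystatins, the other large group of cysteine protease inhibitors in the epidermis, had a higher estimate than WT in DKO for 10 of 11 genes (median 0.50), where 46.8% of all genes had a lower one, and none was called. In KO 7 cystatins had a higher estimate and in KH 5 did. The most abundant, Stfa3, was at 45560 and 35690 FPKM in WT and 69880 and 36250 FPKM in DKO. BC100530 was at 14000 and 11020 FPKM in WT and 26890 and 12130 FPKM in DKO, and Stfa1 at 6712 and 5154 FPKM in WT and 11600 and 5971 FPKM in DKO. In these 3 genes 1 DKO library lay between the WT values and the other above them, and the differences were 0.32, 0.54 and 0.50 (SE 1.012, 0.815 and 0.646). Stfa2 had both DKO libraries above WT, at 7636 and 3446 FPKM against 1815 and 1702 FPKM (difference 1.54, SE 0.653, limma adjusted p = 0.349). The stefin genes of chromosome 16 are near copies of each other, so their single levels are uncertain.

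Marker genes of epidermal layers were set beside the members. The 6 basal markers summed to 5235 and 5311 FPKM in WT, 5309 to 8463 FPKM in KO, 4097 to 7509 FPKM in KH and 6374 and 7333 FPKM in DKO. The 7 hair follicle markers (Lef1, Shh, Sox9, Edar, Lhx2, Krt17, Msx2) summed to 405.2 to 481.5 FPKM in WT, 384.3 to 708.5 FPKM in KO, 371 to 650.7 FPKM in KH and 571.9 to 665.2 FPKM in DKO. Both sums were thus above WT in DKO and overlapped WT in KO and KH. By mean level over the libraries, Krt17 made up most of the hair follicle sum. That sum therefore mainly follows 1 gene and does not give the number of follicles. In sections of DKO skin the paper counted fewer hair follicles, at earlier stages, than in control littermates. The 6 spinous markers (Krt1, Krt10, Dsg1a, Dsc1, Sbsn, Krtdap) summed to 62350 and 75370 FPKM in WT, 31890 to 85780 FPKM in KO, 38460 to 61000 FPKM in KH and 35250 to 60820 FPKM in DKO. The 6 granular and cornified markers (Lor, Flg, Ivl, Casp14, Tgm3, Klk7) summed to 8998 to 11230 FPKM in WT, 5250 to 11650 FPKM in KO, 4221 to 12270 FPKM in KH and 6035 to 11660 FPKM in DKO. So the spinous sums were below WT in KH and DKO, as Serpinb3a was, but overlapped WT in KO, where Serpinb3a did not. None of these genes was called in DKO against WT, and their part in the levels of the members was not tested. Of the 6 neutrophil markers only S100a8, which keratinocytes also make, was appreciable in DKO, at 15.3 and 15.2 FPKM against 1.30 and 0.178 FPKM in WT. It was the 1 neutrophil gene that passed the filter and was called higher in DKO (log2 difference 3.31), and Ly6g, Mpo and Elane were at 0 in all 9 libraries. The 6 melanocyte markers (Dct, Pmel, Tyr, Tyrp1, Mlana, Mitf) summed to 43.7 to 47.8 FPKM in WT, 68 to 83.4 FPKM in KO, 57.3 to 151.6 FPKM in KH and 94.9 to 207.9 FPKM in DKO, so that all 7 knockout libraries were above both WT libraries. None of the 6 was called in DKO against WT and none was at 0 in every library. The 4 T cell markers in the table (Cd3e, Cd3g, Cd2, Thy1) summed to 6.56 to 10.1 FPKM in WT and 11.9 to 26.1 FPKM in KO. Their KH sums were 10.8 and 47.9 FPKM, also above WT, and their DKO sums of 5.28 and 15.8 FPKM lay on both sides of it. The 7 macrophage, dendritic and Langerhans cell markers summed to 11.6 and 19.1 FPKM in WT and 21.5 and 37 FPKM in DKO, while KO (16.5 to 25.5 FPKM) and KH (16.9 and 44.9 FPKM) overlapped WT. The 5 mast cell markers summed to 3.01 and 3.51 FPKM in WT and were above that in KH (4.21 and 7.78 FPKM) and DKO (3.96 and 8.4 FPKM). The 5 endothelial markers summed to 1.68 and 2.13 FPKM in WT and 2.28 to 4.25 FPKM in KO, and overlapped WT in KH and DKO. Fibroblast markers ran from 44.2 to 149.6 FPKM, skeletal muscle markers from 0.399 to 1.4 FPKM and red blood cell markers from 15.4 to 1520 FPKM over the libraries, with an overlap of every genotype with WT. By mean level over the libraries, Kit made up most of the mast cell sum, Egfl7 most of the endothelial sum and Dcn most of the fibroblast sum. Each of these sums therefore mainly follows 1 gene and does not give the amount of the cell type. Apart from S100a8, no gene of the cell type lists was called in DKO against WT. The part of these cells in the members' levels was not tested.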

How the data were processed

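RNA-seq of epidermis from 9 embryos was analysed from the deposited FPKM table. The authors prepared stranded poly(A) libraries, mapped paired reads with TopHat 1.4.1 to mm10 and Ensembl release 72 and estimated FPKM with Cuffdiff 2.2.0. Read counts and the depth of each library were not used here, so no counting error is given. Genes averaging above 0.1 FPKM in at least 1 genotype were fitted as log2(FPKM + 1), without rescaling, with limma 3.58.1 in R 4.3.3 (4 genotype means, intensity trend, 5 residual degrees of freedom). Two-sided p-values were adjusted over all genes in each of 6 comparisons. The members, lists and alternatives were chosen with earlier results of these data known. Named were every member, other serpins as groups, and from each list up to 4 genes, called in DKO against WT or highest in level. Serpinb13 was added after its values were seen. The likeness list took 5 genes nearest Serpinb3a. Scripts were tested on simulated data. Sequences came from GENCODE M21 transcripts and RefSeq promoters (GRCm38.p6) and were aligned with mafft 7.526. Labels name separate embryos but no litters. The paper describes a separate cross for KO, for KH and for DKO, so genotype and cross cannot be told apart between these. The alternatives were pseudocount, filter, variance model, scaling, replicate block, length correction and leaving out each library.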

Additional observations from a re-analysis of the deposited data

How the results depend on the processing

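Serpinb3a was the member called in DKO against WT, and the number of members called there was 0 with no filter, with eBayes without a trend and with the replicate number as a block, and 2, with Serpinb3d, under limma's array weights. It ranged from 0 to 1 over the fits that left out 1 library, which take a genotype's lone library to have the same spread as the rest. In the other 5 comparisons it was 0 under every alternative run. The difference of Serpinb3a stayed between -2.41 and -1.64. Members near 0 turned direction in DKO, and so did Serpinb11 in KO and KH and Serpinb8 in KH under single settings (highest values 0.061, 0.037 and 0.058). Serpinb3b (-0.01) was 0.017 with median ratio scaling, 0.044 with the length correction and -0.20 to 0.18 over the leave-one-out fits. Serpinb3c (0.05) was -0.021 as TPM, -0.037 with quantile normalization and -0.47 to 0.58 over those fits. Serpinb5 (-0.03) was 0.102 with the length correction and -0.17 to 0.10 over them, and Serpinb11 (0.20) was -0.09 without DKO replicate 2 and up to 0.49. The replicate block lowered the genes called in DKO against WT from 123 to 67 (adjusted p = 0.1 for Serpinb3a). Libraries of the same number correlated at -0.567 to 0.468 in their deviations from the genotype means. In a genotype with 2 libraries these deviations mirror each other, and the numbers are those of the sample titles, which differ from the library names. These values and the replicate block therefore cannot settle whether embryos were paired. Genes called there were 41 with no filter, 400 with only the 2 genotypes fitted, 556 with array weights, and 54 and 65 without WT replicate 2 and 1. With 2 or 3 embryos a genotype and an adjustment over all genes, even large differences went uncalled, such as Serpinb3a at 25.3% of WT in KH (limma, adjusted p = 0.448). It was called at 25.1% in DKO, with the same SE of 0.345. The adjustment depends on all genes tested. Of these, 3.72% had an unadjusted p (limma) under 0.05 in KH against WT, and 13.8% in DKO against WT.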
